A study of Mus musculus with 10 samples.

Results

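Wnt proteins are lipid-modified secreted signals through which epithelium and mesenchyme instruct each other during organ formation. The signals *Wnt3*, *Wnt4*, *Wnt5a*, *Wnt5b*, *Wnt6*, *Wnt7b*, *Wnt9b*, *Wnt10a*, *Wnt10b* and *Wnt11* were followed in the mouse first molar between the bud and the cap stage. These 10 ligands were given as a list of Ensembl gene IDs, with no threshold on their values, and all 10 were found among the 27528 genes measured. Gene expression had been measured by microarray in molar 1 tooth germs of NMRI mice, an outbred laboratory stock, with 5 arrays at embryonic day E13.5 (bud stage) and 5 at E14.5 (cap stage). Each array read RNA pooled from 12 to 18 germs. The labels name no genotype and no treatment, and the methods call the germs wild type. A whole germ holds both dental epithelium and dental mesenchyme. The methods call the samples biological replicates but do not say whether they came from separate litters, so the p-values measure the spread between these pools. At either stage the replicates are numbered 1, 2, 4, 5 and 6.

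A Wnt ligand is carried to the cell surface by Wls after Porcn has attached its lipid, and it binds a Frizzled receptor together with Lrp5 or Lrp6. In the canonical branch this halts the destruction of beta-catenin, which then turns on target genes with Tcf and Lef factors, whereas ligands such as *Wnt5a* and *Wnt11* are better known for signalling without beta-catenin. In the tooth, canonical Wnt signalling in the epithelium is needed for the bud to become a cap, and it is active in the enamel knot, the epithelial signalling center that appears at the cap stage.

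The deposited values are signals on what was read as a log2 scale, and a change is the mean at E14.5 minus the mean at E13.5. Array medians were between 5.06 and 5.22, and arrays of 1 stage correlated with each other at 0.975 to 0.994 across genes. Because signals depend on how well the probes of each gene bind, levels of different genes were not ranked against each other. All 18 markers listed for dental epithelium and dental mesenchyme lay above the array median on every array.

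From bud to cap, 4 of the 10 ligands rose and none passed the test as lower, against 4.36% of all genes called higher, 3.49% called lower and 7.85% called in either direction (limma, Benjamini-Hochberg adjustment over all genes, threshold 0.05). The 4 were *Wnt10a*, *Wnt10b*, *Wnt3* and *Wnt4*. The same 4 were the ligands whose E14.5 arrays all lay above all E13.5 arrays, which held for 4.82% of all genes. No ligand had its cap stage arrays all below its bud stage arrays, as 4.01% of all genes had. The changes of the other 6 ligands did not pass, with *Wnt6*, *Wnt7b* and *Wnt11* at positive values and *Wnt5a*, *Wnt5b* and *Wnt9b* at negative ones. Without adjustment, 7 ligands had a limma p under 0.05, beside 18.7% of all genes, among them *Wnt5a* and *Wnt5b* as the 2 that were lower at E14.5. The median change of the 10 ligands was 0.27, beside -0.015 for all genes.

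**Figure D1:**
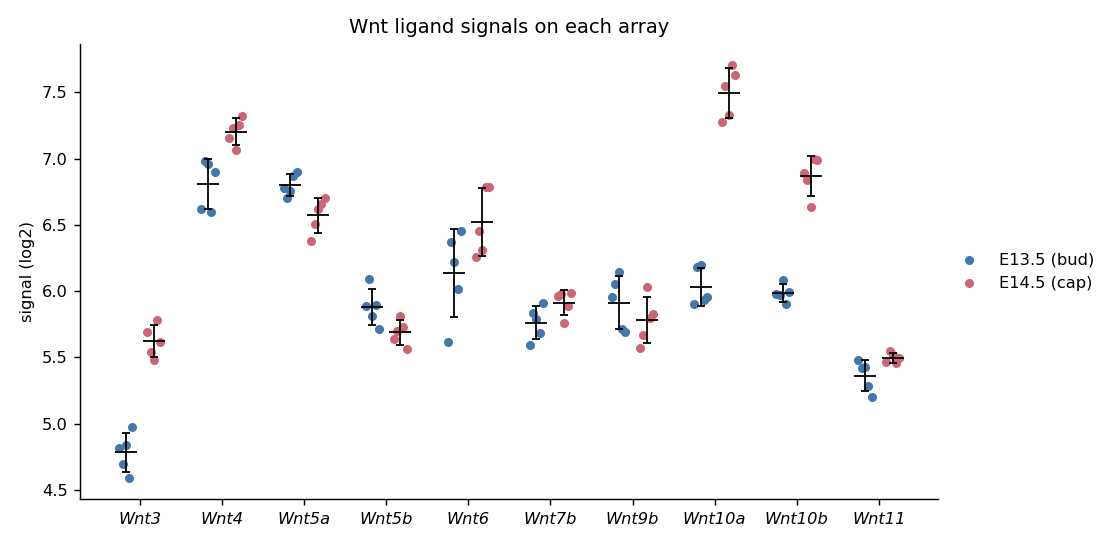
Signal (log2) of each Wnt ligand on each array, with E13.5 in blue and E14.5 in red, horizontal bars for the mean and error bars for the SD of 5 arrays. The *Wnt10a* arrays lie between 5.90 and 6.19 at E13.5 and between 7.28 and 7.71 at E14.5, while the 2 stages overlap for *Wnt5a*, *Wnt5b*, *Wnt6*, *Wnt7b*, *Wnt9b* and *Wnt11*; levels of different genes are not comparable.

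*Wnt10a* (ENSMUSG00000026167), a canonical ligand of the dental epithelium whose human counterpart is one of the genes most often mutated in inherited lack of teeth, had the largest change of the 10. At E13.5 its signals were 5.90, 6.18, 6.19, 5.93 and 5.95 on replicates 1, 2, 4, 5 and 6, and at E14.5 they were 7.28, 7.55, 7.33, 7.71 and 7.63. Every cap stage array was more than 1 log2 unit above every bud stage array. The change was 1.46 ± 0.10 (SE, 5 arrays per stage), or 2.76-fold with a 95% interval from 2.37 to 3.22 (limma adjusted p = 8.17e-06). Depending on the array left out, the change lay between 1.41 and 1.52.

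*Wnt10b* (ENSMUSG00000022996), the close paralog of *Wnt10a* and a canonical ligand also known for its part in bone formation, gave a tight cluster at the bud stage. Its E13.5 signals were 5.98, 5.97, 6.08, 5.90 and 5.99, and its E14.5 signals were 6.89, 6.83, 6.63, 6.99 and 6.99. The lowest cap stage array was thus above the highest bud stage array. *Wnt10b* rose by 0.88 ± 0.078 (SE), which is 1.84-fold with an interval from 1.64 to 2.07 (limma adjusted p = 3.76e-05).

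*Wnt3* (ENSMUSG00000000125), a canonical ligand needed in the early embryo for gastrulation, was dim at the bud stage. Its E13.5 signals of 4.82, 4.69, 4.84, 4.59 and 4.98 were all below the median of their array, and its E14.5 signals of 5.69, 5.54, 5.48, 5.78 and 5.62 were all above it. The change was 0.84 ± 0.087 (SE), or 1.79-fold with an interval from 1.57 to 2.04 (limma adjusted p = 0.000111).

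*Wnt4* (ENSMUSG00000036856), a ligand known for kidney tubule formation and ovarian development, changed less. Its signals ran from 6.62, 6.98, 6.96, 6.60 and 6.90 at E13.5 to 7.15, 7.23, 7.06, 7.25 and 7.32 at E14.5. The stages did not overlap, but the highest bud stage and the lowest cap stage array were close. The rise of *Wnt4* was 0.39 ± 0.094 (SE), or 1.31-fold (limma adjusted p = 0.0232), and it no longer passed the test when any 1 of 5 particular arrays was left out. The adjusted p was 0.0522 without E13.5 replicate 1, 0.0646 without E13.5 replicate 5, 0.0555 without E14.5 replicate 2, 0.0628 without E14.5 replicate 5 and 0.0712 without E14.5 replicate 6, and over all alternatives it ran from 0.00269 to 0.0712. The change of *Wnt4* was between 0.34 and 0.44 when 1 array was left out and 0.49 with array weights.

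To show the DNA in front of the ligands that rose together, the 250 bases before the gene start are given for the 3 of them found in the RefSeq promoter table (GRCm38.p6), read 5′ to 3′ on the strand of the gene. Capitals mark CG dinucleotides, the sites of DNA methylation in mammals. The window of *Wnt4* is chr4:137277385-137277634 on the plus strand, that of *Wnt3* is chr11:103773925-103774174 on the plus strand, and that of *Wnt10b* is chr15:98778151-98778400 on the minus strand.
Wnt4: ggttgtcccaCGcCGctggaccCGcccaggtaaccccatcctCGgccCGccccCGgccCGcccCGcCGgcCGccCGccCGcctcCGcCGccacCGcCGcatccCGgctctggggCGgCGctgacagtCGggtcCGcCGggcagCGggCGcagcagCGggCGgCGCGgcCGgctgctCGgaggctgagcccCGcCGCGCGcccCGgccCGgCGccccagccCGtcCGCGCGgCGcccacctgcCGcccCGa
Wnt3: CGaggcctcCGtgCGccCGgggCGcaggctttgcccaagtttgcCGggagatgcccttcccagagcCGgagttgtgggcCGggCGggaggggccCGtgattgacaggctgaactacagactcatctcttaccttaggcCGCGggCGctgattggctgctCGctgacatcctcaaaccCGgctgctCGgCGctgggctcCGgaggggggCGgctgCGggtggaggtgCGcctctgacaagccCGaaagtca
Wnt10b: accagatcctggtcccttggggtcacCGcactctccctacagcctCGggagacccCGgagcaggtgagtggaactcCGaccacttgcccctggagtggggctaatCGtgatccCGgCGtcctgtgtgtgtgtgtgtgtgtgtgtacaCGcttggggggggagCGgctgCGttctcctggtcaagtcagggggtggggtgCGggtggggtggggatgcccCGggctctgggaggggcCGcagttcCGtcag
These windows had 44 CG dinucleotides for *Wnt4*, 22 for *Wnt3* and 14 for *Wnt10b*. Over the 32851 promoters of the table the median was 6 and the 75th percentile 16. Of the ligands that did not pass, *Wnt6* had 28, *Wnt9b* 22, the windows of *Wnt11* 37 and 16, and those of *Wnt5b* 35, 7 and 4. A high count was thus not particular to the ligands that rose. The GC content of the printed windows was 85.2% for *Wnt4*, 68% for *Wnt3* and 66.8% for *Wnt10b*, beside a median of 52.4%. In the windows of the ligands that did not pass it ran from 53.2% to 79.6%. The core letters of the Tcf and Lef site, CTTTGA or CTTTGT, were searched on both strands of the table's 300-base windows, which run from 250 bases before to 50 bases after the start. Of 10 windows for 7 of the ligands, 3 held a match, and 31.2% of all promoters did. The matches were in *Wnt3*, 19 bases after the start and so outside the bases printed, in *Wnt11*, 50 bases before it, and in 1 of 3 windows of *Wnt5b*, 71 bases before it. A match of 6 letters is a description of the sequence and no measured binding.

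*Wnt6* (ENSMUSG00000033227), an epithelial canonical ligand, had the widest spread within a stage of the 10. Its signals were 5.62, 6.37, 6.22, 6.02 and 6.45 at E13.5 and 6.26, 6.45, 6.31, 6.79 and 6.79 at E14.5. The stages overlapped, and E13.5 replicate 1 was the lowest array. The change of 0.38 ± 0.16 (SE), with an interval from 0.024 to 0.74, did not pass the test (limma adjusted p = 0.229). It was 0.25 without E13.5 replicate 1, and it passed when arrays were weighted by their quality, at 0.53 (limma adjusted p = 0.0252, with alternatives from 0.0252 to 0.451).

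*Wnt5a* (ENSMUSG00000021994), a mostly non-canonical ligand produced by the dental mesenchyme and known for elongating limbs and other outgrowths, had the most negative change of the 10. Its signals were 6.78, 6.70, 6.76, 6.87 and 6.90 at E13.5 and 6.38, 6.50, 6.62, 6.65 and 6.71 at E14.5. Only E14.5 replicate 6 reached into the range of the bud stage arrays. The change was -0.23 ± 0.076 (SE), with an interval from -0.39 to -0.060 (limma adjusted p = 0.109). It passed when the dimmer genes were left out of the limma test (adjusted p = 0.0495), and the limma adjusted p over the alternatives ran from 0.0495 to 0.248. The exact test gave *Wnt5a* an unadjusted p of 0.0159.

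The paralog *Wnt5b* (ENSMUSG00000030170), also non-canonical and known from cartilage growth, lay between 5.72 and 6.09 at E13.5 and between 5.56 and 5.81 at E14.5. Its change was -0.19 ± 0.079 (SE, limma adjusted p = 0.205). *Wnt9b* (ENSMUSG00000018486), a ligand required for kidney tubule induction and for closure of the lip and palate, ranged from 5.69 to 6.14 and then from 5.57 to 6.03. The *Wnt9b* change of -0.13 ± 0.11 (SE) had an interval from -0.38 to 0.11 (limma adjusted p = 0.626). Neither gene separated the stages.

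*Wnt7b* (ENSMUSG00000022382), known in this region from the oral epithelium outside the tooth, ranged from 5.59 to 5.91 at E13.5 and from 5.76 to 5.99 at E14.5. Its change of 0.15 ± 0.077 (SE) did not pass (limma adjusted p = 0.326). *Wnt11* (ENSMUSG00000015957), a non-canonical ligand of kidney branching and heart development, ranged from 5.20 to 5.48 and then from 5.46 to 5.55. The *Wnt11* change was 0.14 ± 0.067 (SE, limma adjusted p = 0.318), with only a narrow overlap of the stages. The intervals of *Wnt7b*, from -0.016 to 0.32, and of *Wnt11*, from -0.012 to 0.28, leave out a change of the size measured for *Wnt10a*, *Wnt10b* or *Wnt3*.

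**Figure D2:**
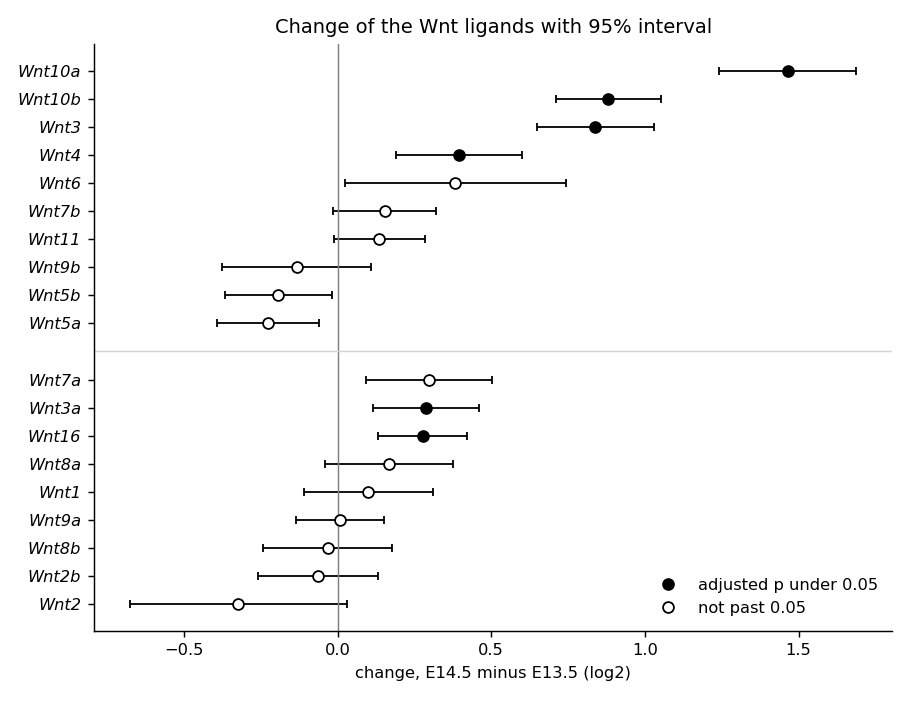
Change (E14.5 minus E13.5, log2) of the 10 Wnt ligands above the line and of the 9 other Wnt ligands below it, with 95% intervals from limma and filled points for an adjusted p under 0.05. Above the line the change runs from -0.23 for *Wnt5a* to 1.46 for *Wnt10a*, and below it from -0.32 for *Wnt2* to 0.30 for *Wnt7a*.

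To find out whether related ligands changed by different amounts, the difference between 2 signals on the same array was compared between stages for 4 pairs (two-sided exact permutation test with all ways of dividing the arrays into 5 and 5, Benjamini-Hochberg adjusted for 4 pairs, smallest possible p 0.00794). *Wnt10a* minus *Wnt10b* was 0.047 ± 0.12 (SD, n = 5) at E13.5 and 0.63 ± 0.14 at E14.5. Their changes thus differed by 0.58, with an interval from 0.40 to 0.76 and no overlap of the arrays (exact permutation, adjusted p = 0.0106). In contrast, the difference of *Wnt5a* and *Wnt5b* was 0.92 ± 0.21 (SD, n = 5) at the bud stage and 0.88 ± 0.16 at the cap stage. That change of -0.033 had an interval from -0.28 to 0.24 (exact permutation, adjusted p = 0.794), so their changes may differ by any amount within that interval.

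The remaining pairs are neighbors on a chromosome. *Wnt6* and *Wnt10a* are consecutive protein-coding genes on chromosome 1, and *Wnt9b* and *Wnt3* on chromosome 11 (RefSeq, GRCm38.p6). *Wnt10a* minus *Wnt6* went from -0.10 ± 0.28 (SD, n = 5) at E13.5 to 0.98 ± 0.098 at E14.5, a change of 1.08 with an interval from 0.79 to 1.39 (exact permutation, adjusted p = 0.0106). *Wnt3* minus *Wnt9b* went from -1.13 ± 0.25 (SD, n = 5) to -0.16 ± 0.25, a change of 0.97 with an interval from 0.59 to 1.30 (exact permutation, adjusted p = 0.0106). In both pairs the 2 neighbors therefore changed by unequal amounts. The loci of *Wnt9b* and *Wnt3* lie on opposite strands and overlap by 1098 bases, and whether probes of either gene read that stretch is not given in the sources used here. *Wnt10b* has *Wnt1* as its neighbor on chromosome 15, and *Wnt1* changed by 0.099 ± 0.096 (SE, limma adjusted p = 0.695) with signals below the median of all 10 arrays.

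**Figure D3:**
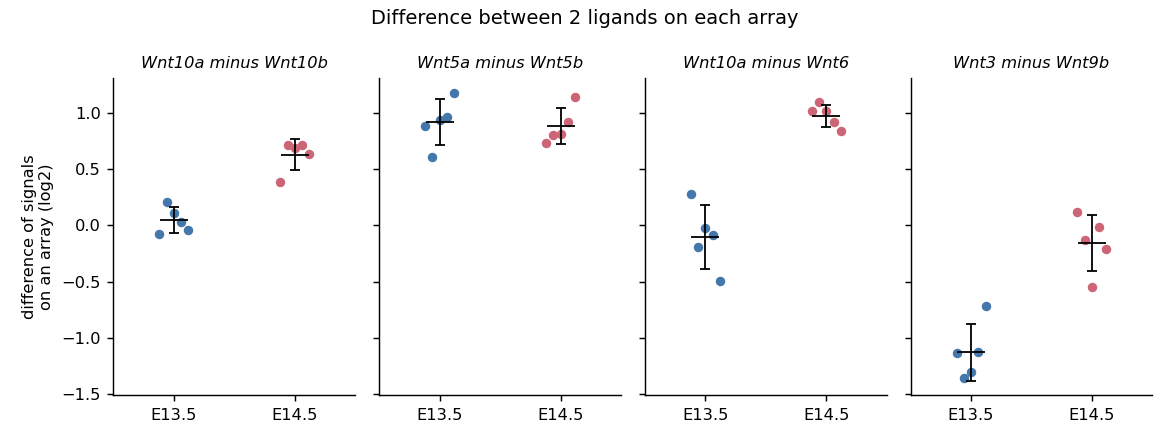
Difference between the signals (log2) of 2 ligands on each array for 4 pairs, with E13.5 in blue, E14.5 in red, and the mean ± SD of 5 arrays. The *Wnt10a* minus *Wnt10b* values run from -0.079 to 0.21 at E13.5 and from 0.39 to 0.72 at E14.5, whereas the *Wnt5a* minus *Wnt5b* values of the stages overlap.

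Tissue markers also differed between the stages. Of 8 dental epithelium markers, 6 were higher at E14.5 and the changes of all 8 were above 0, from 0.42 for *Trp63*, a master regulator of stratified epithelia, to 1.02 for *Foxi3*, a forkhead factor of ectodermal organs, which did not pass (limma adjusted p = 0.0513). The mean signal of these markers was 7.31 to 7.92 on the bud stage arrays and 8.32 to 8.54 on the cap stage arrays. E13.5 replicate 1 was the lowest at 7.31, and the other 4 bud stage arrays were at 7.80 or above. Of 10 dental mesenchyme markers, 7 were lower, 2 were higher (*Dcn* and *Col1a1*, both genes of the fibrous matrix) and *Runx2* did not pass. Their median change was -0.97 and their mean signal was 8.54 to 8.62 at E13.5 and 7.82 to 7.96 at E14.5. In pooled whole germs, fewer cells of a type and less RNA per cell cannot be told apart.

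Markers of the enamel knot were mostly higher at the cap stage. Of these 10 genes, 7 were higher at E14.5, with a median change of 0.86 and a mean signal of 5.84 to 6.27 at E13.5 against 6.90 to 7.23 at E14.5. The changes of *Fgf20* (0.92), *Bmp7* (0.54) and *Fgf9* (-0.012) did not pass, with limma adjusted p of 0.0549, 0.0710 and 0.978. *Shh*, the hedgehog ligand of the knot, rose by 2.02 ± 0.14 (SE, limma adjusted p = 8.69e-06). Of 4 bone and mineralization markers 2 were higher, *Spp1* by 1.89 and *Alpl* by 0.74, of 3 endothelium markers 1 was higher, and neither nerve and glia marker had an unadjusted limma or exact p under 0.05. None of these lists is complete, and their part in the changes of the Wnt ligands was not tested.

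As an alternative chosen after the marker levels had been seen, each ligand was expressed relative to the mean of the 8 epithelial markers on its own array. *Wnt10a* still had no overlap of the stages, at -1.71 ± 0.22 (SD, n = 5) for E13.5 and -0.94 ± 0.18 for E14.5, a change of 0.77. On this relative scale 0.2% of all genes were higher with no overlap. Since the marker mean itself changed by 0.70, most genes moved down on it. The change of *Wnt10a* was also larger than that of each of the 8 markers. Before scaling, *Shh* and *Fgf4* of the enamel knot list rose by more than *Wnt10a*, by 2.02 and 1.59, and the rest of that list changed by less. For *Wnt10b* the relative change was 0.18 and for *Wnt3* it was 0.14, both with overlapping stages, and either gene had a larger change than 6 of the 8 markers. Without E13.5 replicate 1, the relative changes were 0.29 for *Wnt10b* and 0.26 for *Wnt3*, and the stages no longer overlapped. The *Wnt3* stages were then barely apart, at -2.95 for the highest bud stage array and -2.92 for the lowest cap stage array. The share of all genes without overlap in that setting is not given here. Without E13.5 replicate 5, the relative change of *Wnt3* was 0.081. *Wnt4* had a relative change of -0.30 and *Wnt6* of -0.31, both with overlapping stages. The other 5 ligands were lower relative to the epithelial markers on every cap stage array than on any bud stage array, from -0.54 for *Wnt7b* to -0.92 for *Wnt5a*, as were 69.5% of all genes. These differences are a description and carry no test. The mean signal of the dental mesenchyme markers changed by -0.67, and no ligand was expressed relative to them. For *Wnt5a*, a ligand of the mesenchyme, the direction on such a scale is thus not given here.

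**Figure D4:**
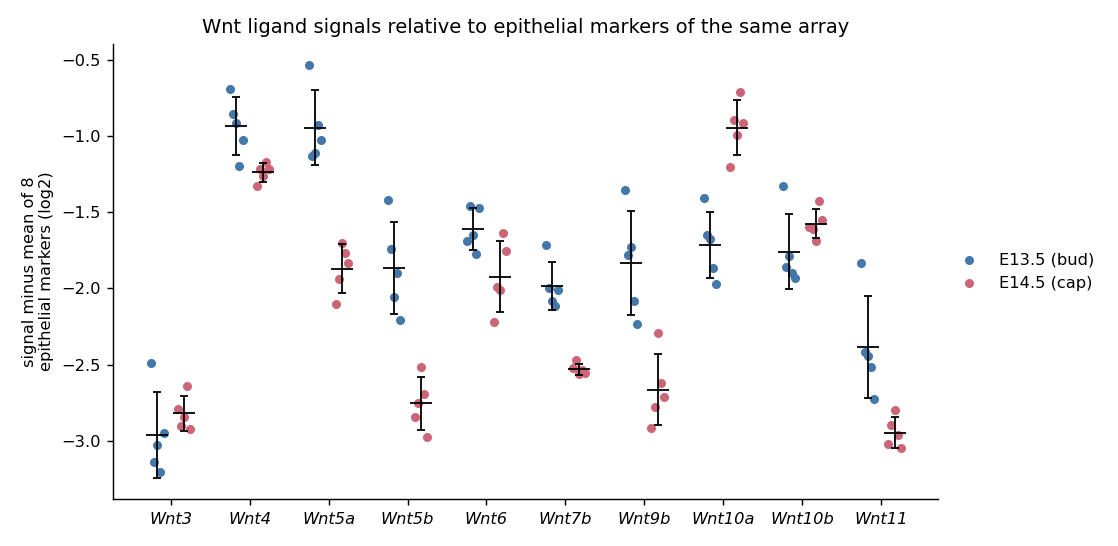
Signal of each Wnt ligand minus the mean of 8 epithelial markers on the same array (log2), with E13.5 in blue, E14.5 in red, and the mean ± SD of 5 arrays. *Wnt10a* is the ligand whose cap stage values, from -1.21 to -0.71, all lie above its bud stage values, from -1.97 to -1.41.

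The nearest profiles to *Wnt10a* belonged to *Fgf4*, a growth factor of the enamel knot, *Dkk4*, a secreted Wnt inhibitor, and *Ndrg1*, a gene induced in differentiating epithelia. Likeness was the root-mean-square difference over the 10 arrays after each gene was centred on its own mean, among 394 genes with a symbol. These symbols came from the gene lists of the study, so the other genes measured were not searched. It was 0.122 log2 units for *Fgf4*, 0.173 for *Dkk4* and 0.195 for *Ndrg1*, where the median gene had 0.735. *Fgf4* went from 5.56 ± 0.15 (SD, n = 5) to 7.15 ± 0.21, close to the course of *Wnt10a* from 6.03 ± 0.14 to 7.50 ± 0.19. For *Wnt5a* the nearest were *Map3k7*, a kinase of Tgf-beta and inflammatory signalling, at 0.083, *Rps6ka3*, a ribosomal S6 kinase, at 0.088 and *Intu*, a planar polarity effector needed for cilia, at 0.098, where the median gene had 0.224.

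Of the 9 other Wnt ligands measured, *Wnt3a* and *Wnt16* were higher, with a median change of 0.099 for the list. *Wnt3a*, a canonical ligand of the trunk and tail, went from 5.45 ± 0.12 (SD, n = 5) to 5.74 ± 0.11, a change of 0.29 (limma adjusted p = 0.0468). *Wnt16*, known from bone, went from 4.54 ± 0.090 (SD, n = 5) to 4.81 ± 0.075, a change of 0.28 (limma adjusted p = 0.0238), below the array median on all 10 arrays. Both calls were near the threshold. That of *Wnt3a* held without replicate 2 of E13.5 or replicate 4 of E14.5 and was lost without any other single array, at limma adjusted p of 0.0522 to 0.131, and 10 of 16 alternatives ended it. That of *Wnt16* was lost without any 1 of replicates 4, 5 and 6 of E13.5 and 5 and 6 of E14.5, at limma adjusted p of 0.0530 to 0.0762, and 8 of 15 alternatives ended it.

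The 60 Wnt pathway genes other than the 10 ligands, these 9 included, held 13 that were higher and 4 that were lower, beside 4.36% and 3.49% of all genes, with a median change of 0.089. The stages did not overlap for 18 of the 60, beside 8.84% of all genes in either direction. For secretion, neither gene passed. *Wls*, the carrier of Wnt proteins, was at 8.65 ± 0.25 (SD, n = 5) and then 8.35 ± 0.16, a change of -0.31 (limma adjusted p = 0.189, unadjusted p = 0.0279), and without E13.5 replicate 2 it passed at -0.41 (limma adjusted p = 0.0189, with alternatives from 0.0189 to 0.354). *Porcn*, the enzyme that lipidates them, changed by -0.034 (limma adjusted p = 0.924).

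Of 12 receptors 4 rose, with a median change of 0.12. The Frizzled receptors *Fzd1*, *Fzd5* and *Fzd6* had changes of 0.57 ± 0.13, 0.53 ± 0.086 and 0.48 ± 0.075 (SE), with limma adjusted p of 0.0215, 0.00229 and 0.00177, and *Lrp5*, the co-receptor, had 0.29 ± 0.069 (limma adjusted p = 0.0223). For *Fzd1*, 4 fits that left out 1 array ended the call: E13.5 replicate 5, or E14.5 replicate 2, 5 or 6, with adjusted p of 0.0519, 0.0513, 0.0592 and 0.0646 in that order, and 0.00141 to 0.0646 over all alternatives. The co-receptor *Lrp6* had a change of -0.14 and did not pass (limma adjusted p = 0.310).

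Secreted and membrane inhibitors moved in both directions, with 3 of 11 higher and 3 lower. *Dkk4*, which blocks the co-receptors and is also in the enamel knot list, rose from 4.55 ± 0.22 (SD, n = 5) to 5.73 ± 0.15, *Sostdc1*, a tooth-restraining antagonist of Bmp and Wnt signals, from 7.81 ± 0.29 to 8.76 ± 0.12, and *Lrp4*, a partner of Sostdc1, by 0.88. *Frzb*, a Frizzled-like decoy that binds Wnt proteins, fell from 8.82 ± 0.30 (SD, n = 5) to 7.47 ± 0.38, a change of -1.35 ± 0.19 (SE, limma adjusted p = 0.000812). *Sfrp2* and *Sfrp1*, decoys of the same family, fell by 0.63 and 0.54.

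Among 7 feedback and target genes 4 rose and 1 fell. *Rnf43* and *Znrf3*, which remove Frizzled receptors from the cell surface, rose by 0.62 ± 0.10 (SE) and 0.34 ± 0.074, *Tcf7*, a transcription factor of the pathway, by 0.47 ± 0.081, and *Nkd1*, an antagonist of Dishevelled, by 0.45 ± 0.11. The limma adjusted p of *Nkd1* was 0.0262, and 6 of 16 alternatives ended its call, at 0.0549 to 0.0686 without any 1 of replicates 1, 4 and 5 of E13.5 and 2 and 6 of E14.5 and at 0.0570 with centred arrays. *Nkd2*, the paralog of *Nkd1*, fell by 0.32 (limma adjusted p = 0.0423). *Axin2*, the most widely used readout of canonical Wnt signalling, was at 6.94 ± 0.15 (SD, n = 5) and then 6.82 ± 0.16, a change of -0.11 with an interval from -0.33 to 0.097 (limma adjusted p = 0.634). *Lef1*, the partner of beta-catenin without which teeth stop at the bud stage, had a change of 0.26 ± 0.088 (SE) and did not pass (limma adjusted p = 0.111), though it did with array weights, with quantile normalization and without E14.5 replicate 4, at 0.0125 to 0.0258.

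Beside a share of 7.85% over all genes, none of 15 intracellular genes, among them *Ctnnb1* for beta-catenin, *Apc*, *Axin1*, *Gsk3b* and the Dishevelled genes, passed the limma test, and none had an unadjusted limma p under 0.05, although the exact test gave *Ctnnb1* an unadjusted p of 0.0317 with a change of 0.10. Their median change was 0.083. None of 4 Tcf and Groucho factors passed limma with adjustment either, while *Tle1* and *Tle3* had an unadjusted p under 0.05 in limma and in the exact test, with changes of -0.19 and 0.20.

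When E13.5 replicate 1, with the lowest epithelial signal, was left out, 6.94% of all genes passed in either direction, and 3 ligands of the 10 were higher (*Wnt10a*, *Wnt10b* and *Wnt3*), 1 other Wnt ligand, 3 receptors, and 3 feedback genes with none lower. The inhibitors stayed at 3 higher and 3 lower, the enamel knot markers at 7 higher, and the epithelial markers came to 8 higher. The mesenchymal markers stayed at 7 lower, with none higher.

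**Figure D5:**
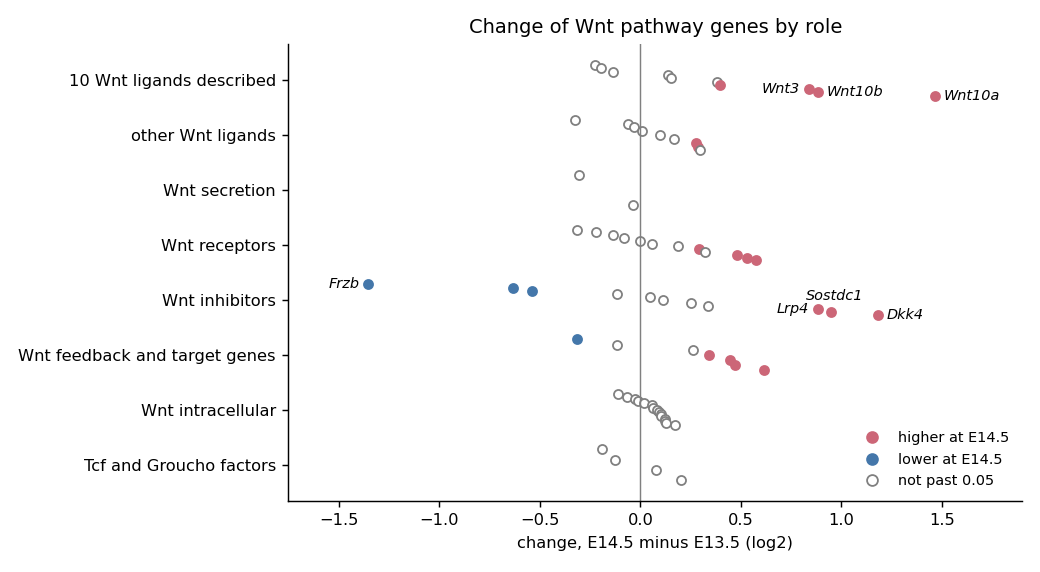
Change (E14.5 minus E13.5, log2) of each Wnt pathway gene by role, with filled points for genes higher (red) or lower (blue) at an adjusted p under 0.05 and open points for the rest. *Wnt10a*, *Wnt10b*, *Wnt3*, *Dkk4*, *Sostdc1* and *Lrp4* lie above 0.80 and *Frzb* at -1.35, while the intracellular genes lie between -0.11 and 0.17.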

How the data were processed

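RNA of molar 1 tooth germs was hybridised to Affymetrix Mouse Exon arrays, 1 sample per array. The authors normalized the gene signals with aroma.affymetrix, using a Brainarray custom probe grouping with 1 probe set per Ensembl gene, and deposited 1 value per gene and array, taken here as log2 because values ran from 1.30 to 12.83. The log base, background correction, summary model and build are not given in the sources used here. Signal over background and scan batches were not analysed here, and the number of arrays limits the precision. No 2 arrays held identical values.

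Stages were compared with limma 3.58.1 in R 4.3.3 (lmFit, eBayes, all 10 arrays, no covariate, two-sided) over 27528 genes with Benjamini-Hochberg adjustment, and Wnt pairs with exact permutation tests in Python 3.11.15, numpy 2.4.6 and pandas 2.3.3. Intervals of a pair hold the shifts that its exact test did not reject. On simulated data limma recovered 91% of 200 genes changed by 1 log2 unit, with 6 calls among the unchanged genes and 0 when none was changed. The simulated noise was independent between genes, with nothing shared by an array, so these counts do not measure false calls on the real arrays. Symbols came from the gene lists of the study, 395 of 399 being in the table. The text names all 10 ligands, up to 3 called genes of each pathway list with the largest changes, *Axin2*, *Lef1*, *Wls* and *Porcn*, the 3 nearest profiles of the ligands with the largest rise and the most negative change, and genes of the marker lists; any other gene was picked once its values were known. The ligands and lists were chosen with earlier results of these data known. Alternatives were quantile normalization, centring, array weights, a trended robust prior, the replicate number as a block, leaving out dim genes or each array, and the exact test.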

Additional observations from a re-analysis of the deposited data

Results flagged for a closer look

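In 4 of 58 sets of 5 arrays, 1 array stood apart, in that its gap to the nearest other array was over 0.71 of the range of the set (Dixon's criterion). By chance about 1 set in 20 does so, or 2.9 of these. *Fzd1* was at 7.06 on E13.5 replicate 1, while the other bud stage arrays were between 7.58 and 7.75. *Frzb* was at 8.13 on E14.5 replicate 1, against 7.23 to 7.41 on the other cap stage arrays. *Nkd1* was at 6.82 on E13.5 replicate 6, where the others were between 6.74 and 6.76. The difference of *Wnt10a* and *Wnt10b* was 0.39 on E14.5 replicate 1, and 0.64 to 0.72 on the other 4 cap stage arrays. The cause of these values was not tested.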

How the results depend on the processing

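*Wnt10a*, *Wnt10b* and *Wnt3* kept their direction and passed the threshold in every alternative to the stage test, and *Wnt4* kept its direction there. Relative to the epithelial markers, which carries no test, *Wnt4* was at -0.30 and the stages of *Wnt10b* and *Wnt3* overlapped. Over all single genes and pairs, 518 values stayed on their side of the threshold or within the spread, 36 calls were lost, 9 were gained and 4 values changed sign. The 518 include the values relative to the epithelial markers, which have no threshold. Among the gains, those of *Wnt5a*, *Wnt5b* and *Wnt11* in the exact test rest on an unadjusted p. The count of ligands called was 4, and between 3 and 4 without 1 array. It was 5 with array weights, where 14.2% of all genes were called, and 5 without dim genes, where 17.5% of the genes kept were called. With the unadjusted exact test it was 7, and the share of all genes under that test is not given here. The count of the other pathway genes was 17, between 10 (without E13.5 replicate 5) and 19 without 1 array, 23 with array weights and 11 with arrays centred on their median; it was also 11 without E14.5 replicate 6. Calls over all genes ran from 1479 (5.37%) to 2554 (9.28%) without 1 array, against 2162 (7.85%). With arrays centred on their median 6.09% of all genes were called. The sign changes were in values near 0. *Porcn* ran from -0.082 to 0.0087 without 1 array, and was above 0 without E14.5 replicate 1 or 2. *Wnt5a* minus *Wnt5b* ran from -0.11 to 0.033, and was above 0 without E13.5 replicate 6 or E14.5 replicate 1. The cause was not tested.

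Same-numbered arrays deviated from their stage means with correlations of -0.079 to 0.51, and 2 of 5 E13.5 arrays correlated best with their own number, so the numbers were not taken as pairs. With a replicate block 4 ligands and 15 other pathway genes were called, beside 7.55% of all genes. The block left 0 of 4 pair differences past the threshold, against 3, since 5 paired arrays cannot give an exact p below 0.0625. Whichever array was left out, 3 pairs passed.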
